A study of Homo sapiens with 6 samples.

Results

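The genes described here encode the enzymes and carriers of glycolysis and a set of genes of the hypoxia response. They were chosen by name: 38 gene symbols, each found in the deposited count tables of both experiments, out of 42972 symbols that the tables hold together. Of the 38 genes, 25 belong to glucose uptake, glycolysis and lactate handling, and 13 are the subunits, regulators and targets of the hypoxia-inducible factor (HIF) together with TXNIP. Fold changes were computed where the mean over the 3 libraries of an experiment reached 1 CPM (CPM is the count of a gene scaled to the size of its library). In the knockdown experiment 36 genes passed this filter and in the rebastinib experiment 37, while SLC16A1, CA9 (both knockdown) and EGLN3 (rebastinib) are described by their counts.

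The cells were MDA-MB-231, an established human line of triple-negative breast cancer. In the knockdown experiment, cells were infected with lentivirus and sorted into stable lines. The control line carried the hairpin named scramble, and the others carried 1 of the hairpins CDK16-sh1 and CDK16-sh2. Both target CDK16, an atypical cyclin-dependent kinase. In the rebastinib experiment, cells of the same line received DMSO, 1 μM rebastinib (Reb) or 5 μM Reb for 48 h. Reb is a small molecule kinase inhibitor that the study used to inhibit CDK16. The paper also describes Reb as acting on other kinases such as Tie2, and reports that micromolar doses lowered the viability of this line. Each of the 6 conditions had 1 library, so no difference between conditions has a replicate check, and both treated libraries of an experiment share 1 control library. A change in the whole culture and a change in the number of cells of a certain state cannot be told apart in such libraries.

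Glycolysis splits glucose into pyruvate. Glucose enters through the transporters of the SLC2A family, the hexokinases trap it as a phosphate, and phosphofructokinase commits it to breakdown under the control of a bisphosphate that the PFKFB enzymes make and remove. Lactate dehydrogenase turns pyruvate into lactate, which leaves the cell through monocarboxylate carriers, and the pyruvate dehydrogenase kinases switch off pyruvate dehydrogenase. The HIF transcription factors, whose alpha subunits are marked for destruction by oxygen-dependent prolyl hydroxylases, are known to activate many of these genes through DNA elements with a short common core. MDA-MB-231 cells are known for a high rate of aerobic glycolysis.

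That core was searched for as ACGTG or GCGTG on both strands of the RefSeq promoter windows on GRCh38.p14, which run from 250 bases before a start site to 50 bases after it. Windows were found for 33 of the 38 genes, 61 windows in all. The core was present in 42 of the 61 windows (68.9%), against 48.4% of all 35116 windows of this length. These shares were not matched for GC content, and both forms of the core contain CG. At least 1 window of 31 genes held the core, a count by gene that has no share over all genes beside it. Several genes have more than 1 window, and an E-box (CACGTG) holds the core once on each strand, so that it counts as 2 matches. Windows of some of the genes with large changes in these data follow, 5′ to 3′ on the strand of the gene, with the matched letters in capitals. Of the other genes past 2-fold, PFKP and ANKRD37 had at most 3 matches in a window and PFKFB3 at most 2. At most 1 was found for SLC2A1, PFKFB4, ENO2, HIF1A, EPAS1, ADM and CA9, and 0 for EGLN3. A match is a description of the letters, not a bound site.
The window of LDHA shown here (chr11:18394313-18394612, plus strand) had 6 matches, including a pair of E-boxes, and a further window of LDHA had 1.
LDHA: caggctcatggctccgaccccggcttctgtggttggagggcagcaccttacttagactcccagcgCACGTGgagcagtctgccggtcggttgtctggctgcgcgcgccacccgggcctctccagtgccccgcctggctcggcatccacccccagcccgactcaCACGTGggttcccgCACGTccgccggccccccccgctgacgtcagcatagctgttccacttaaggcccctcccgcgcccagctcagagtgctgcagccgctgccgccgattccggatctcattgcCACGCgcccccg
The GAPDH window (chr12:6535014-6535313, plus strand) had 1 E-box, which is 2 matches.
GAPDH: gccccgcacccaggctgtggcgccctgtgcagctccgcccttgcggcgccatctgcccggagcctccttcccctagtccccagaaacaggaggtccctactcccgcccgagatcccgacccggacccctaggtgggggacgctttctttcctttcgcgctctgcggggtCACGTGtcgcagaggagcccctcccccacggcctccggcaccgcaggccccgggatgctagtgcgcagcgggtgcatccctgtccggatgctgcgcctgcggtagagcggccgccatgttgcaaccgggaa
Of the 5 windows of SLC16A3, the one with 3 matches is given (chr17:82234649-82234948, plus strand).
SLC16A3: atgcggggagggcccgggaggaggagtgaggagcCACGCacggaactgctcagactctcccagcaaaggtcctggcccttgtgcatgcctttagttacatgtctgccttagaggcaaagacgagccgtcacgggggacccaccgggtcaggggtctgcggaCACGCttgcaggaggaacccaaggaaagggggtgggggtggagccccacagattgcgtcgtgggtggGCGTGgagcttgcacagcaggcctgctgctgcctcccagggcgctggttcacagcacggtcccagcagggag
In the GC-rich window of PDK1 (chr2:172555840-172556139, plus strand) there were 2 matches close to the start site.
PDK1: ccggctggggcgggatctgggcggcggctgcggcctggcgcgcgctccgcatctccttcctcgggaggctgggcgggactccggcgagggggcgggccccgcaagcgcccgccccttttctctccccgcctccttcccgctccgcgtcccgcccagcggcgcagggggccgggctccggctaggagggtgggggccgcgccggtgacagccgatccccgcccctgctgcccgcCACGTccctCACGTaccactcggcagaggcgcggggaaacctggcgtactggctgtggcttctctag
TXNIP is known as a target of the glucose-sensing factor MondoA, which binds paired elements. Its window (chr1:145996530-145996829, minus strand) is therefore shown with the match to the pair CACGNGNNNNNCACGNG in capitals, a pattern that 20 of the 35116 windows held (0.057%) and, among the 61 windows here, those of TXNIP and P4HA1.
TXNIP: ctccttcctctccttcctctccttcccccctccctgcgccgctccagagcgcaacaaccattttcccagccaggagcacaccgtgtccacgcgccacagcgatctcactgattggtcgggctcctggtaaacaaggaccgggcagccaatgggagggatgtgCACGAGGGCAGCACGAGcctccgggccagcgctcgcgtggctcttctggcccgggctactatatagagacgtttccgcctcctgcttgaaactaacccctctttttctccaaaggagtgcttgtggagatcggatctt

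Total counts ranged from 25838443 to 50303269 per library, and the 38 genes together took from 1.01% to 1.42% of them. CDK16 itself had 3223 counts with scramble, 1360 with CDK16-sh1 and 846 with CDK16-sh2, a log2 fold change of −1.52 (interval −1.61 to −1.43) and −1.82 (interval −1.93 to −1.71). Intervals are 95% Clopper-Pearson intervals from the pair of counts and cover counting error only. The mesenchymal markers VIM, CD44 and AXL were high in all 6 libraries, with at least 8803 counts each, and the endothelial markers PECAM1 and CDH5 had from 4 to 154 counts, highest in DMSO. Markers that the line should lack (ESR1, PGR, CDH1, PTPRC and CD3E) had from 0 to 8 counts per library, except in the 1 μM Reb library, where they had from 8 to 53. Mitochondrial transcripts took 16.2% of counts in CDK16-sh2 against 11.3% in scramble, and 16.4% in 5 μM Reb against 7.19% in DMSO.

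In both control libraries, GAPDH, ENO1, PKM and TPI1, which act in the middle and at the end of the pathway, had the highest RPKM (counts scaled to exon length and library total) of the 38 genes, in that order. GAPDH stood at 678 RPKM in scramble and 633 in DMSO, ENO1 at 446 and 333, PKM at 332 and 288, and TPI1 at 194 and 142. LDHA and LDHB, which encode the subunits of lactate dehydrogenase, held the next places, at 137 and 154 in scramble and at 104 and 93.9 in DMSO. LDHB was above LDHA in scramble and below it in DMSO. The genes at the low end were PDK1, EGLN3, SLC16A1 and CA9, all below 1 RPKM in both controls. These RPKM divide by the summed exons of all annotated transcripts, 6210 bases for LDHA and 14883 bases for PDK1, which lowers the values of genes with long or many transcripts.

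Scaled counts of the knockdown libraries were compared first, to ask which of these genes differed from the scramble control with each hairpin. With CDK16-sh1, 3 genes were at least 2-fold lower (PFKFB3, EPAS1 and EGLN3) and 4 were at least 2-fold higher (SLC16A3, PFKFB4, ADM and SLC2A3). They make up 8.33% and 11.1% of the 36 genes, while 6.86% and 4.33% of all 15295 genes tested lay past 2-fold in the same directions. EGLN3 reached the filter through scramble, with 1.76 scaled CPM there against 0.758 and 0.910 with the hairpins. Its lower call is therefore not independent of the filter. With a mean of at least 5 CPM, 6.06% of 33 genes were lower and 12.1% higher, beside 5.68% and 3.13% of all genes. With CDK16-sh2, 0 of the 36 genes were past 2-fold on either side, against 7.62% lower and 2.2% higher among all genes. For the first hairpin the median log2 fold change of the 36 genes was 0.05 and for the second 0.07, beside 0.00 and 0.02 for all genes. With the hairpin libraries pooled and set against scramble, edgeR's quasi-likelihood test called 0 of the 36 genes and 0% of all genes at an adjusted p of at most 0.05 and a 2-fold change. SLC16A3 alone of the group reached an unadjusted p under 0.05 in edgeR, as did 382 of all genes, and its adjusted p was 1.00. DESeq2 called 0 of the 36 and 0 of all genes as well, with 0 of the 36 at an unadjusted p under 0.05.

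SLC16A3, the monocarboxylate carrier that exports lactate from glycolytic cells, showed the largest difference of the group between a hairpin and its control. Scramble had 2293 of its counts, CDK16-sh1 8915 and CDK16-sh2 2757. With CDK16-sh1 this was 3.21-fold the control (log2 1.68, interval 1.62 to 1.75), and with CDK16-sh2 the log2 value was 0.37 (interval 0.29 to 0.45). The other lactate carrier, SLC16A1, was near the floor, with 10, 9 and 11 counts. LDHA had 21986, 24689 and 21973 counts and log2 fold changes of −0.11 and 0.11, so it lay close to the control with both hairpins. For LDHB the counts were 11850, 16313 and 16303 and the changes 0.18 and 0.57. The share of LDHB in the sum of both lactate dehydrogenase genes, by RPKM, was thus 52.9% with scramble, 57.9% with CDK16-sh1 and 60.7% with CDK16-sh2.

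The genes of glucose uptake and of the first step differed between the hairpins. SLC2A1, the more abundant of both glucose transporters by RPKM, had 6196 counts with scramble, 6700 with CDK16-sh1 and 3412 with CDK16-sh2, with log2 fold changes of −0.16 and −0.75 (interval −0.81 to −0.69). SLC2A3 had 412, 1035 and 317 counts, a change of 1.05 (0.995 with the authors' RPKM) and −0.27. It is an uncertain gene, since its near-identical pseudogenes held 422, 93 and 271 counts in the same libraries, equal to 102%, 8.99% and 85.5% of its own. HK2, the inducible hexokinase, had 1809, 1412 and 1878 counts, with −0.63 in CDK16-sh1 and 0.16 in CDK16-sh2, where the value was −0.04 with library totals. That scaling also turned PFKFB4, TPI1, PGK1, PGAM1, PKM, LDHA, PDK3, EGLN1 and ADM in CDK16-sh2 from positive to negative, 10 of the 36 genes in all, none below −0.16. HK1, which most tissues use, had changes of −0.03 and 0.38.

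The pair of genes for the enzymes that set the level of the phosphofructokinase activator had opposite values in CDK16-sh1. PFKFB3, whose product mostly makes the activator, had 1624 counts with scramble, 914 with CDK16-sh1 and 1958 with CDK16-sh2. On the log2 scale this was −1.10 (interval −1.22 to −0.99) for the first hairpin and 0.38 (interval 0.28 to 0.47) for the second. PFKFB4 had 170, 460 and 178 counts, a change of 1.15 (interval 0.90 to 1.42) and 0.17 (interval −0.14 to 0.48). The ratio of PFKFB4 to PFKFB3 counts, which needs no scaling between libraries, was therefore 4.81-fold higher in CDK16-sh1 than in scramble, and in CDK16-sh2 its log2 change of −0.20 (interval −0.52 to 0.11) was within counting error.

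The enzymes from phosphoglucose isomerase to pyruvate kinase stayed within 2-fold of the control with both hairpins. In CDK16-sh1 the values above 0 were led by GPI (0.93), ALDOA (0.59), PKM (0.55), GAPDH (0.52), ENO2 (0.45) and TPI1 (0.43). GAPDH, the gene that serves the study as reference in quantitative PCR, had 52251 counts in scramble, 90888 in CDK16-sh1 and 57962 in CDK16-sh2, which after scaling is 1.44-fold and 1.19-fold the control. With the trend on GC content and length removed, GAPDH in CDK16-sh1 stood at 0.11 and TPI1 at 0.05. In that setting GPI was at 0.98 and ALDOA at 0.49. In CDK16-sh2 the highest values were those of PFKM, the muscle-type phosphofructokinase (0.68), and GPI (0.46). PFKL and PFKP, the liver and platelet types, lay between −0.13 and 0.09 in both libraries. PGK1, PGAM1 and ENO1 were between −0.16 and 0.30. ALDOC, the low-level brain aldolase, had 57, 78 and 44 counts and was within counting error of scramble with both hairpins.

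Both HIF alpha subunit genes had values below 0 with either hairpin, except that HIF1A in CDK16-sh2 stood at 0.00 with the GC and length trend removed, and of these values that of EPAS1 in CDK16-sh1 was past 2-fold. EPAS1, the second alpha subunit gene, had 1007 counts with scramble, 525 with CDK16-sh1 and 625 with CDK16-sh2, at −1.21 (interval −1.37 to −1.06) and −0.58 (interval −0.73 to −0.44). HIF1A had 3278, 2631 and 2502 counts, with changes of −0.59 and −0.28. Over the settings tried, HIF1A in CDK16-sh1 ran from −0.64 to −0.11, and EPAS1 from −1.26 to −1.21. Of the prolyl hydroxylases, EGLN3 had only 48, 25 and 23 counts, a change of −1.15 (interval −1.98 to −0.49) and −0.90 (interval −1.74 to −0.21), while EGLN1 stood at −0.30 and 0.04. With the authors' RPKM, EGLN3 in CDK16-sh1 was inside 2-fold, at −0.77.

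The targets of the hypoxia response did not share a direction. ADM, which encodes the vasodilator peptide adrenomedullin, had 1964, 5029 and 1902 counts and was 2.11-fold higher in CDK16-sh1 (log2 1.08, interval 1.00 to 1.16), with a change of 0.06 in CDK16-sh2. NDRG1, a stress-responsive gene, stood at 0.71 and 0.69, with 1048, 2085 and 1568 counts. P4HA1, a subunit of the enzyme that hydroxylates collagen, had 745, 772 and 1331 counts, and its values of −0.22 and 0.94 lay on opposite sides of 0. BNIP3L, a mitophagy receptor, had 1482, 1529 and 741 counts (−0.23 and −0.89), whereas its relative BNIP3 stood at −0.12 and 0.44. The ratio of BNIP3L to BNIP3 was 2.53-fold lower in CDK16-sh2 than in scramble (log2 −1.34, interval −1.49 to −1.18). VEGFA, the angiogenic factor, was at 0.18 and −0.58. Of the others, ANKRD37 had changes of 0.57 and 0.38, TXNIP of 0.76 and −0.20, and PDK1 and PDK3 lay between −0.69 and 0.05. CA9 had 0, 1 and 1 counts, under the floor of 3 counts.

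**Figure D1:**
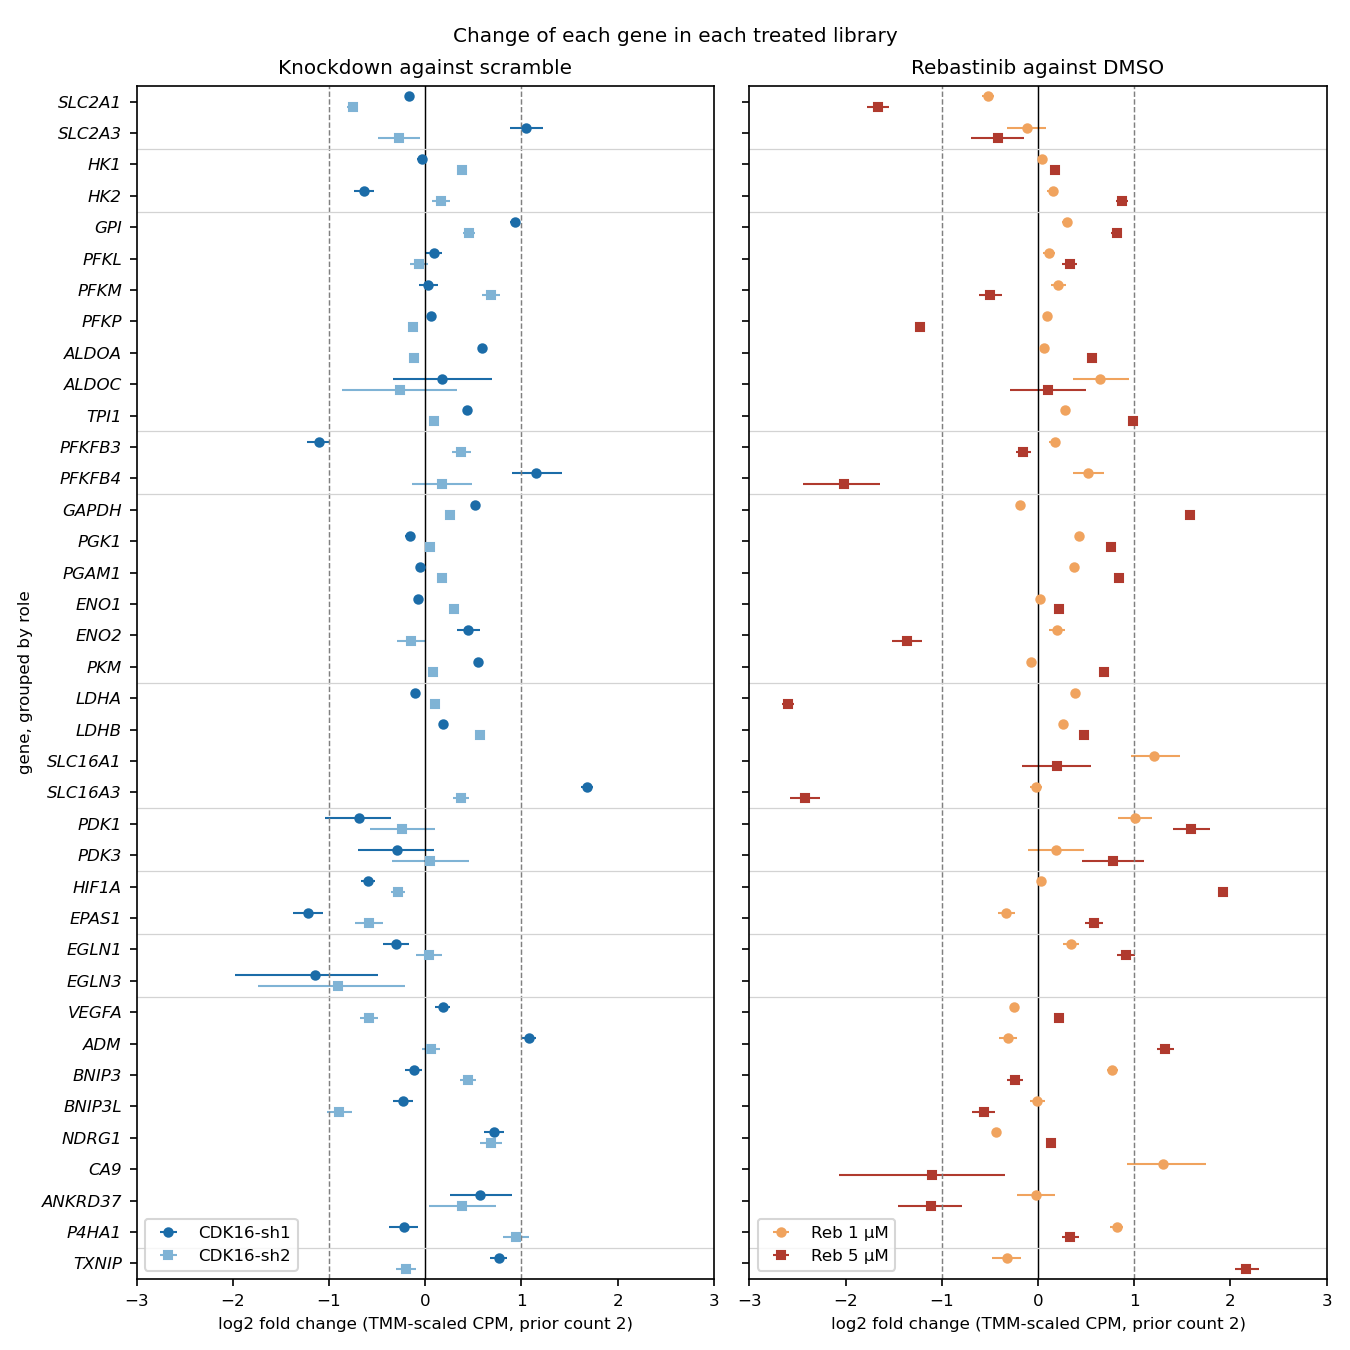
Log2 fold change of each gene (y axis, grouped by role) in each treated library against its own control (x axis, TMM-scaled CPM), with knockdown on the left and Reb on the right. Bars are 95% counting intervals, there is 1 library per condition, dashed lines mark 2-fold, and genes without a point did not pass the filter. The red squares of 5 μM Reb spread from −2.60 (LDHA) to 2.17 (TXNIP), while those of CDK16-sh2 stay between −0.90 and 0.94.

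The hairpins were also set against each other. In CDK16-sh2 relative to CDK16-sh1, 15 of the 36 genes (41.7%) were higher and 16 (44.4%) lower beyond counting error, as were 37.4% and 37.5% of all genes. The 5 genes within it were ALDOC, PDK3, EGLN3, NDRG1 and ANKRD37. Past 2-fold were PFKFB3 (1.48) and P4HA1 (1.17) on the higher side, and SLC2A3 (−1.32), SLC16A3 (−1.31) and ADM (−1.02) on the lower side. They are 5.56% and 8.33% of the genes, close to the 6.53% and 8.68% of all genes. Genes richer in GC tended to higher values in CDK16-sh1 (Pearson r = 0.478 over 12940 genes, which share a library and are not independent replicates), and r was 0.131 in CDK16-sh2. The median GC content was 52.7% for the 38 genes and 48.2% for all genes. With the trend on GC content and length removed, SLC16A3 in CDK16-sh1 stood at 1.45, PFKFB4 at 0.97 and ADM at 0.66, so that 2 genes in place of 4 were past 2-fold on the higher side, 5.56% of the 36 beside 2.15% of all genes in that setting. PFKL, PFKP and ALDOC in CDK16-sh1 then turned negative, and PGK1, LDHA, EGLN1 and BNIP3L positive, all with values from −0.20 to 0.18. The part of GC content in these values was not tested further.

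The second experiment asked how the genes differed from DMSO at each dose of Reb. At 1 μM, 0 of the 37 genes were at least 2-fold lower and 3 were at least 2-fold higher, CA9, SLC16A1 and PDK1, which is 8.11% of the genes. Among all 15655 genes tested, 1.92% were lower and 1.28% higher by this measure. The higher dose had 8 of the 37 genes past 2-fold on the lower side and 5 on the higher side, or 21.6% and 13.5%. Both shares lay under those of all genes, 27.2% and 23.6%. The median log2 fold change of the 37 genes was 0.15 at 1 μM and 0.22 at 5 μM, beside 0.00 and −0.07 for all genes. The values at 5 μM depend on the scaling: with library totals the median of all genes shifted by −0.69 and 11 of the 37 genes were lower and 2 higher past 2-fold, beside 43.4% and 11.7% of all genes. Changes at 5 μM are therefore given relative to the other genes of the library. With totals the values of HK1, PFKL, ALDOA, ALDOC, ENO1, PKM, LDHB, SLC16A1, EPAS1, VEGFA, NDRG1 and P4HA1 at 5 μM turned from positive to negative. Across genes, r with GC content was −0.305 at 1 μM and −0.217 at 5 μM, and removing the GC and length trend left 6 lower and 12 higher genes at 5 μM, with ENO2 at −0.91 and PFKP at −0.63. These are 16.2% and 32.4% of the 37 genes, beside 25.9% and 21.1% of all genes in that setting, so the share on the higher side then lay above that of all genes. The same removal turned PFKFB3 (0.43) and BNIP3 (0.10) positive and P4HA1 (−0.07) negative at 5 μM.

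With both doses as 1 group, edgeR's quasi-likelihood test called 0 of the 37 genes, against 0.0767% of all genes. The smallest p among them was that of TXNIP (unadjusted p = 0.249, edgeR), so 0 had an unadjusted p under 0.05. DESeq2 likewise called 0 of the 37 genes, against 18 of all 15655. When log2 of the dose plus 1 entered the model as a straight line, 7 genes were called, 4 lower (LDHA, SLC16A3, PFKFB4 and SLC2A1) and 3 higher (TXNIP, HIF1A and ADM). The adjusted p was 0.0022 for TXNIP, 0.0062 for SLC16A3 and 0.014 for both HIF1A and LDHA (edgeR), while those of SLC2A1, PFKFB4 and ADM lay between 0.037 and 0.050. In this fit 11.1% of all genes were called lower and 13.3% higher. It rests on 3 libraries with 1 residual degree of freedom and on the assumption of a straight line in dose. Among the 7 genes, LDHA, PFKFB4, TXNIP and ADM had values on opposite sides of 0 at the lower and the higher dose. A straight line does not describe these genes.

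The lowest value at 5 μM was that of LDHA, whose subunit favours the conversion of pyruvate to lactate. DMSO had 32538 counts of LDHA, the 1 μM library 43143 and the 5 μM library 2492. After scaling it was at 1.30-fold the control at 1 μM (log2 0.38, interval 0.36 to 0.40) and 6.05-fold lower at 5 μM (log2 −2.60, interval −2.66 to −2.54). LDHB, whose subunit favours the reverse reaction, had 14090, 17129 and 9132 counts, with changes of 0.26 and 0.48. By RPKM, LDHB made up 47.4% of both genes in the control, 45.3% at the lower dose and 88.4% at the higher. The ratio of LDHB to LDHA counts, free of any scaling between libraries, was 8.46-fold higher at 5 μM than in DMSO (log2 3.08, interval 3.01 to 3.15). LDHA pseudogenes held under 1% of the counts of LDHA in every library.

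The lactate exporter SLC16A3 was low at 5 μM as well. Its counts were 4230, 4243 and 366 in DMSO, 1 μM and 5 μM, a log2 fold change of −0.02 (interval −0.08 to 0.04) and −2.42 (interval −2.58 to −2.27). SLC16A1 had 188, 445 and 100 counts, and was 2.31-fold higher at 1 μM (log2 1.21, interval 0.97 to 1.47) and within counting error of the control at 5 μM (log2 0.20, interval −0.17 to 0.56). The 1 μM library is the one that holds more counts of markers the line should lack (PTPRC 35 against 2 in DMSO, CDH1 53 against 7). Their part in the higher values of the low-count genes SLC16A1, CA9 and EGLN3 was not tested. SLC16A3 made up 93.0% of both carriers by RPKM in the control, 84.9% at the lower dose and 68.4% at the higher. BSG, the chaperone of both carriers and no member of the group, had 14859 counts with DMSO and 24464 at 5 μM (log2 1.83).

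**Figure D2:**
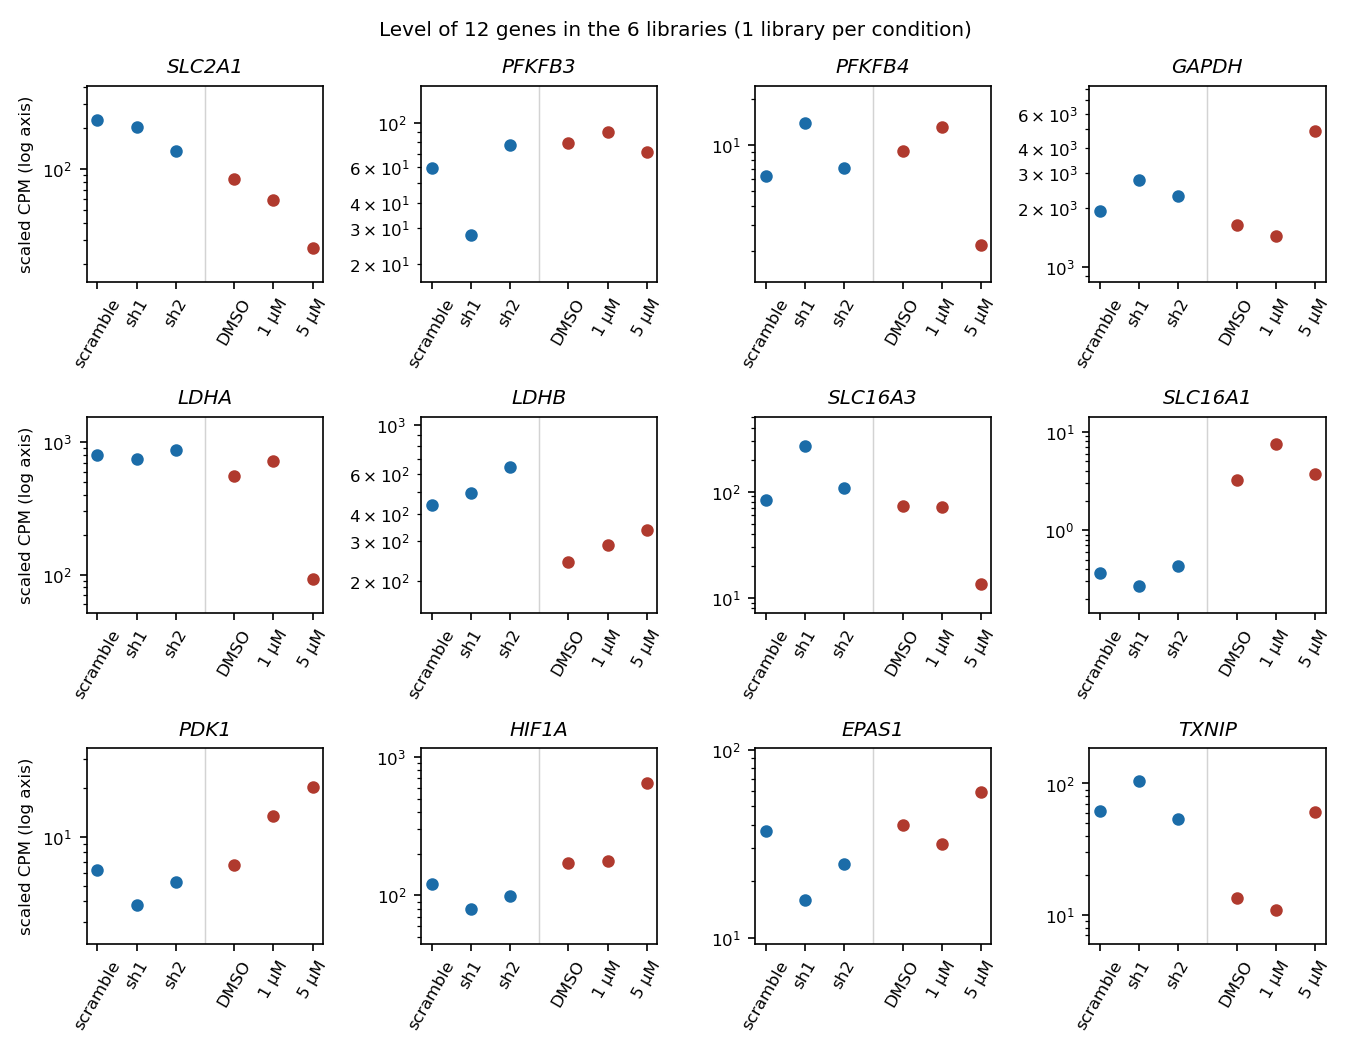
Scaled CPM (log axis) of 12 genes in the 6 libraries, with knockdown libraries in blue and Reb libraries in red, 1 point per library and no replicates. The experiments were scaled separately, so levels compare within a color. At 5 μM Reb LDHA, SLC16A3, PFKFB4 and SLC2A1 lie below their DMSO level, while GAPDH, HIF1A and TXNIP stand above it.

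The glucose transporter gene SLC2A1 was below the control at both doses. It had 4873, 3464 and 713 counts, a log2 fold change of −0.52 (interval −0.58 to −0.45) and −1.66 (interval −1.78 to −1.55). SLC2A3 had 434, 406 and 151 counts (−0.12 and −0.41), with pseudogene counts of 157%, 178% and 385% of its own, so its values are uncertain. HK2 had 4887, 5521 and 4153 counts and changes of 0.15 and 0.87, and HK1 changes of 0.04 and 0.18. The HK2 to HK1 ratio was 1.62-fold that of DMSO at 5 μM.

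The genes of the phosphofructokinase step differed among themselves at 5 μM. PFKP, the most abundant of the 3 subunit genes by RPKM, had 16737 counts in the DMSO library, 18093 in the 1 μM one and 3323 in the 5 μM one. The log2 value of −1.22 at 5 μM (interval −1.28 to −1.17) stands beside 0.33 for PFKL and −0.50 for PFKM. PFKM depends on the setting, with −1.19 for library totals, −1.16 for the authors' RPKM, −1.03 for totals without mitochondrial transcripts and −0.07 with the GC and length trend removed. The ratio of PFKP to PFKL was 2.93-fold lower than in DMSO, and PFKP still held 73.7% of their RPKM sum, from 89.1%. PFKFB4 had 530, 776 and 60 counts, with 1.44-fold the control at 1 μM and 4.04-fold below it at 5 μM (log2 −2.01, interval −2.44 to −1.65). PFKFB3 had 4618, 5298 and 1927 counts, at 0.17 and −0.15, the last of which was 0.43 with the GC and length trend removed. The PFKFB4 to PFKFB3 ratio was thus 3.69-fold lower at 5 μM.

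In contrast, GAPDH was higher at 5 μM. The counts were 94931 for DMSO, 84750 for 1 μM and 131716 for 5 μM, although the last library had the lowest total count of the 3. After scaling it stood at −0.19 (interval −0.20 to −0.17) for the lower dose and at 2.99-fold the control (log2 1.58, interval 1.57 to 1.59) for the higher. With library totals the latter was 0.89, and GAPDH took 0.189% of all counts in DMSO and 0.350% at 5 μM. Its pseudogenes held from 0.136% to 0.217% of its counts. TPI1, which interconverts the triose phosphates, lay just inside 2-fold at 5 μM (0.99, 19222 counts with DMSO and 17664 at 5 μM), followed by PGAM1 (0.85), GPI (0.82), PGK1 (0.76), PKM (0.69), ALDOA (0.56) and ENO1 (0.22). Of these, PKM, ALDOA and ENO1 are among the genes that were negative with library totals. At 1 μM the same genes lay between −0.07 and 0.43. ENO2, the neuronal enolase, differed from ENO1: it had 2152, 2503 and 389 counts, a change of 0.19 and −1.36, and its ratio to ENO1 was 2.99-fold lower at 5 μM. ALDOC had 162, 258 and 81 counts, at 0.64 and 0.11.

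GAPDH is also the gene to which the study scaled its quantitative PCR, and the primers are given here because its level differed between the libraries. Both were matched to GENCODE 29 transcripts without mismatch.
forward: ggagcgagatccctccaaaat
reverse: ggctgttgtcatacttctcatgg
The forward primer spans the junction of exons 4 and 5 of GAPDH (chr12:6536788-6536937 on GRCh38, an interval that includes the intron) and the reverse primer lies in exon 6 (chr12:6537181-6537203), with an amplicon of 197 bases on the transcript. The forward primer also matched transcripts of 5 GAPDH pseudogenes and the reverse primer those of 3. Within a library, LDHA relative to GAPDH was 18.1-fold lower at 5 μM than in DMSO (log2 −4.18, interval −4.24 to −4.12), against 6.05-fold for LDHA after scaling over all genes.

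**Figure D3:**
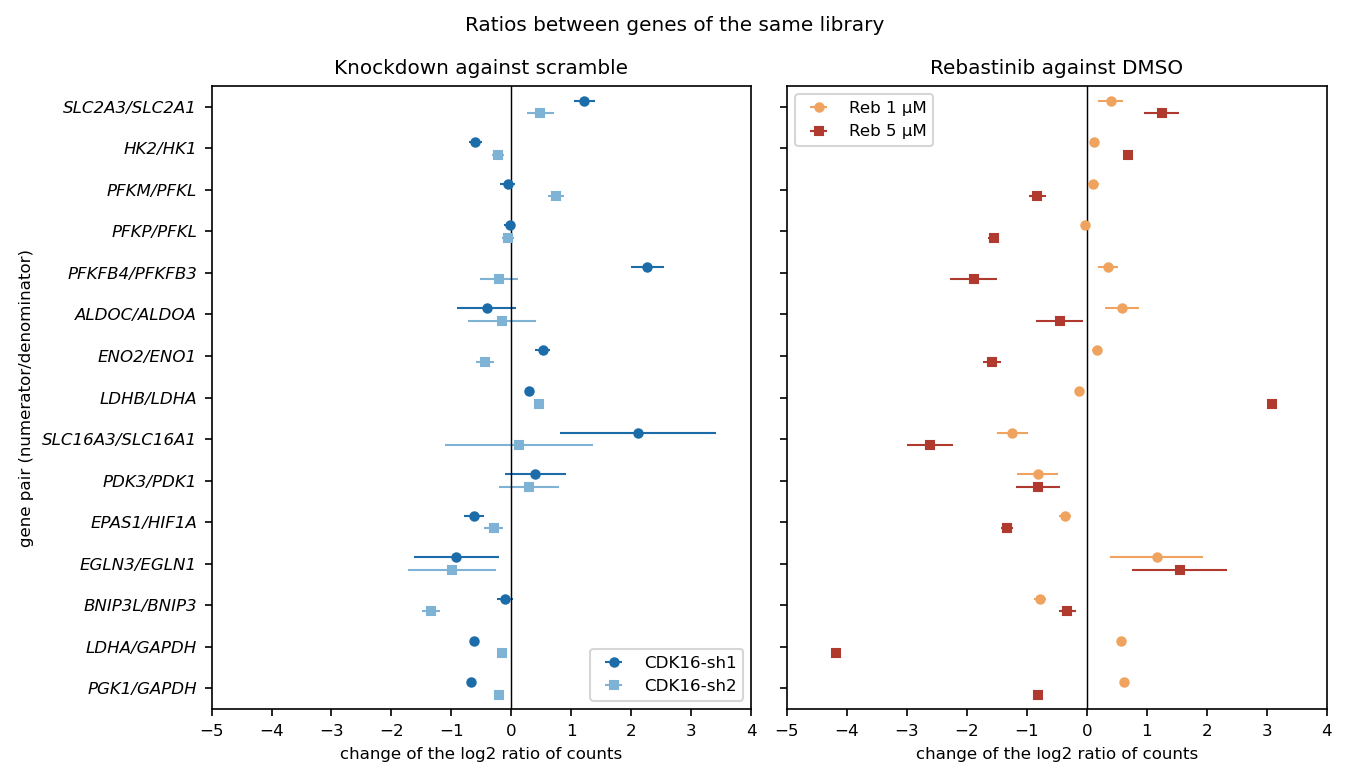
Change of the log2 ratio of counts between 2 genes of a library (x axis) for 15 pairs (y axis, numerator first), for knockdown against scramble and Reb against DMSO. Bars are 95% counting intervals, with 1 library per condition, and no scaling between libraries enters. LDHB/LDHA at 3.08 and LDHA/GAPDH at −4.18 lie farthest from 0, both at 5 μM.

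PDK1, a kinase that switches off pyruvate dehydrogenase, was the 1 gene past 2-fold higher at both doses among the 37 that passed the filter. It had 390, 798 and 546 counts, at 1.00 (interval 0.83 to 1.19) and 1.59 (interval 1.40 to 1.78). The value at 1 μM sits on the threshold, and it was 0.93 from the authors' RPKM and 0.89 with the GC and length trend removed. At 5 μM PDK1 was also inside 2-fold with library totals (0.90) and with the authors' RPKM (0.79). PDK3 stood at 0.19 and 0.77. From the list of other glycolysis genes, PDK2 was lower at 5 μM (855 counts with DMSO and 77 at 5 μM, log2 −2.35), as was PDHB, which encodes a subunit of pyruvate dehydrogenase itself (−1.97). PDP1, a phosphatase that reactivates this enzyme, was higher (1.62) and PDP2 lower (−1.94).

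HIF1A had the next highest value after TXNIP among the genes with a fold change at 5 μM. The libraries held 10039 counts for DMSO, 10461 for 1 μM and 17621 for 5 μM, which is within counting error at 1 μM (log2 0.04, interval −0.00 to 0.08) and 3.78-fold higher at 5 μM (log2 1.92, interval 1.88 to 1.96). EPAS1 had 2323, 1878 and 1615 counts and stood at −0.33 and 0.58. Relative to HIF1A it was 2.52-fold lower at 5 μM. EGLN1, the main prolyl hydroxylase that targets the HIF subunits, was at 0.34 and 0.91. EGLN3 had 18, 52 and 46 counts, or 0.309, 0.877 and 1.70 scaled CPM, and did not pass the filter. Its counting intervals on the log2 scale, 0.71 to 2.37 at 1 μM and 1.65 to 3.34 at 5 μM, lay above 0, and the latter overlaps that of TXNIP. These are transcript levels, and the HIF proteins were not measured in these data.

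The 8 other hypoxia targets had values on both sides of 0 at 5 μM, 4 below and 4 above, with a median log2 fold change of −0.05 beside −0.07 for all genes. Past 2-fold were 2 lower and 1 higher, or 25.0% and 12.5%, beside 27.2% and 23.6% of all genes. ADM had 1896, 1552 and 2205 counts, and was at 1.24-fold below the control at 1 μM and 2.51-fold above it at 5 μM (log2 1.32, interval 1.24 to 1.42). The latter was inside 2-fold with library totals (0.64), the authors' RPKM (0.63) and totals without mitochondrial transcripts (0.79). ANKRD37 had 440, 441 and 94 counts, a change of −0.02 and −1.11. About 35.2% of its exon bases overlap UFSP2 on the other strand. CA9, a carbonic anhydrase of hypoxic tumor cells, had 72, 184 and 15 counts, with 1.30 (interval 0.93 to 1.74) for the lower dose and −1.10 (interval −2.06 to −0.34) for the higher. Of the exon bases of CA9, 38.5% overlap ARHGEF39 on the other strand. The library kit keeps strand, but whether the counting used it is not given in the sources used here.

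The remaining 5 targets were within 2-fold of DMSO at both doses with TMM scaling, while BNIP3L at 5 μM was past it with library totals (−1.25), the authors' RPKM (−1.23) and totals without mitochondrial transcripts (−1.10). BNIP3 had 4111, 7133 and 1617 counts (0.77 and −0.24), and P4HA1 had 2745, 4914 and 1605 (0.82 and 0.33). Both were highest at 1 μM, and the difference of 5 μM from 1 μM was −1.01 (interval −1.09 to −0.93) for BNIP3 and −0.48 (interval −0.56 to −0.40) for P4HA1. VEGFA had 16811, 14357 and 9045 counts (−0.25 and 0.21), NDRG1 had 13133, 9856 and 6710 (−0.44 and 0.14), and BNIP3L had 2387, 2416 and 750 (−0.01 and −0.56). VEGFA, NDRG1 and P4HA1 were negative at 5 μM with library totals.

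TXNIP, an inhibitor of glucose uptake and of thioredoxin, had the highest value among the genes that passed the filter at 5 μM. Its counts were 790 for DMSO, 641 for 1 μM and 1648 for 5 μM. It lay 1.25-fold below the control at 1 μM (log2 −0.32, interval −0.48 to −0.17) and 4.49-fold above it at 5 μM (log2 2.17, interval 2.05 to 2.29). ARRDC4 and ARRDC3, arrestin-family relatives of TXNIP on the list of other hypoxia genes, were also higher at 5 μM. ARRDC4 had 42 counts with DMSO and 948 at 5 μM, 46.1-fold higher (log2 5.53, interval 5.16 to 6.09), and ARRDC3 had 398 and 1902, 10.2-fold higher (log2 3.36, interval 3.21 to 3.52). The pair of elements shown above in the TXNIP window was not matched in the windows of ARRDC4 or ARRDC3.

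Between the doses, each of the 37 genes differed beyond counting error, 21 higher and 16 lower at 5 μM than at 1 μM. Of all genes, 42.3% were higher and 45.1% lower beyond counting error in this comparison, against 56.8% and 43.2% here. Past 2-fold were 4 higher genes (TXNIP, HIF1A, GAPDH and ADM) and 10 lower ones, which is 10.8% and 27.0% beside 22.8% and 25.8% of all genes. The largest gaps were those of LDHA (−2.98, interval −3.04 to −2.92), PFKFB4 (−2.54), TXNIP (2.49), CA9 (−2.40) and SLC16A3 (−2.40). LDHA and PFKFB4 lay above the DMSO control at 1 μM and below it at 5 μM, and TXNIP and ADM the other way round. Counting error is not the spread between cultures, which a single library per dose cannot give.

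**Figure D4:**
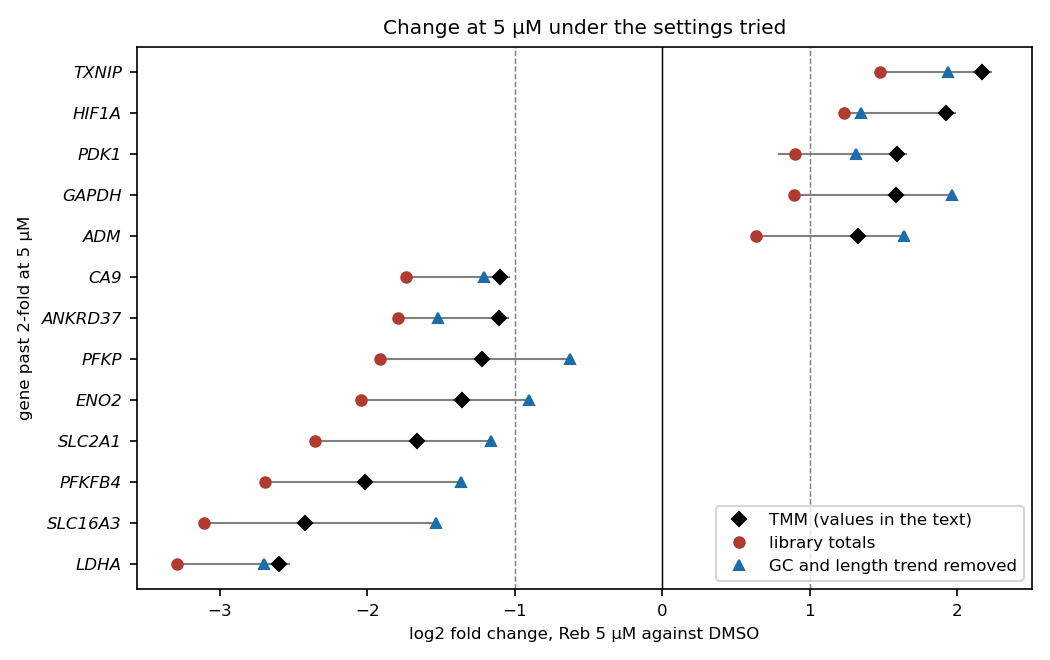
Log2 fold change at 5 μM Reb against DMSO (x axis) of the 13 genes past 2-fold (y axis) under 9 settings of the analysis, with 1 library per dose. The grey bar spans the lowest to the highest value, diamonds mark TMM scaling, circles library totals and triangles the removed GC and length trend, and dashed lines mark 2-fold. LDHA spans −3.29 to −2.53 and TXNIP 1.46 to 2.23, while PDK1, GAPDH and ADM are inside 2-fold when libraries are scaled by their totals.

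Among 48 other genes of glycolysis and of pyruvate and pentose phosphate metabolism, 35 were tested in the knockdown experiment and 37 in the Reb experiment. CDK16-sh1 had 4 lower and 1 higher of them past 2-fold, CDK16-sh2 3 and 0, and Reb 1 and 0 at 1 μM, and 7 and 7 at 5 μM. These counts were 11.4% and 2.86% of the tested list genes in CDK16-sh1 (6.86% and 4.33% of all genes), 8.57% and 0% in CDK16-sh2 (7.62% and 2.2%), 2.70% and 0% at 1 μM (1.92% and 1.28%), and 18.9% and 18.9% at 5 μM (27.2% and 23.6%). PGM2 (−2.03, 941 counts with scramble and 278 with CDK16-sh1) and GPD2 (−1.78) were the lowest in CDK16-sh1, and SLC16A7, a further monocarboxylate carrier, was past 2-fold lower in both hairpins (−1.46 and −1.09). Of 62 genes on the list of other hypoxia genes, 53 and 58 were tested. The list also holds the TXNIP relatives ARRDC3 and ARRDC4, and MLX, MLXIP and MLXIPL, so its shares are not of hypoxia genes alone. There, CDK16-sh1 had 1 lower and 4 higher genes past 2-fold, CDK16-sh2 4 and 0, and Reb 2 and 4 at 1 μM, and 16 and 15 at 5 μM. The shares were 1.89% and 7.55% for CDK16-sh1, 7.55% and 0% for CDK16-sh2, and 3.45% and 6.90% at 1 μM, and those at 5 μM, 27.6% and 25.9%, were near the 27.2% and 23.6% of all genes. IGFBP3, which binds insulin-like growth factors, was the lowest of them in CDK16-sh2 (1815 counts with scramble and 238 with the hairpin, log2 −2.81). The secreted hormone gene STC1 had 6014, 2693 and 238 counts for DMSO, 1 μM and 5 μM (−1.18 and −3.54), and LOX, which crosslinks collagen, was at 1.23 at 1 μM with 495 and 1182 counts. These lists were read, like the main group, by their counts alone.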

How the data were processed

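Stranded mRNA libraries of MDA-MB-231 cells were sequenced, 1 per condition, in 2 experiments of 3 libraries. The authors deposited, per gene symbol, whole-number read counts without normalization, and RPKM values made from the same counts by exon length and library total. The submitters' processing notes name Trimmomatic, featureCounts, Subread 1.5.1 and GRCh38. The aligner and the annotation are not given in the sources used here.

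Log2 fold changes were computed from the counts with edgeR 4.0.16 in R 4.3.3 (TMM scaling, prior count 2) after genes whose mean fell under 1 CPM were left out. The pooled comparison used edgeR's quasi-likelihood test, p-values were adjusted by Benjamini-Hochberg over every gene tested, and DESeq2 1.42.0 was an alternative. The thresholds, an adjusted p of 0.05 and 2-fold, are those of the study's methods. Replicates were not available, so the pooled test takes the difference between hairpins or doses as its spread. The fits were checked on simulated data. Intervals (95%, Clopper-Pearson, for ratios a normal approximation of the log ratio) cover counting error only. None of the processing tools named above collapses reads by molecular identifier, so a read need not stand for a molecule of its own. Total counts per library ranged from 25838443 to 50303269.

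All 38 genes are accounted for, ordered by role, and the other lists, each with the 3 largest falls and rises, were written by hand. The members and lists were chosen with earlier results of these data known. BSG, PDP1, PDP2 and the other list genes named are among those falls and rises. Promoter windows and gene starts are from RefSeq on GRCh38.p14, GC content from GENCODE 29. Alternatives were DESeq2 size factors, library totals with and without mitochondrial transcripts, the authors' RPKM plus 0.1, a prior count of 0.5, no filter, at least 5 CPM, removal of a loess trend on GC content and length, and dose as a linear term.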

Additional observations from a re-analysis of the deposited data

How the results depend on the processing

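Of the 23 calls past 2-fold, 13 stayed past it under every alternative that gave a value, among them LDHA, SLC16A3, PFKFB4, SLC2A1, HIF1A and TXNIP at 5 μM Reb, and none changed sign. In CDK16-sh1 the authors' RPKM left 2 genes lower and 3 higher past 2-fold. These are 5.56% and 8.33% of the 36 genes, beside 6.09% and 3.45% of all genes. With library totals, totals without mitochondrial transcripts and the authors' RPKM, 2, 2 and 1 genes were past 2-fold lower in CDK16-sh2 instead of 0. These are 5.56%, 5.56% and 2.78% of the 36 genes, beside 11.1%, 9.56% and 9.60% of all genes. The median of the 36 genes was then −0.13, −0.045 and −0.13 in place of 0.07. At 5 μM Reb the median was −0.47, −0.32 and −0.42 in place of 0.22, and 0.070 without a filter. Library totals and RPKM each left 2 genes higher past 2-fold at 5 μM in place of 5. That is 5.41% of the 37 genes, beside 11.7% and 11.1% of all genes. The median of the genes minus that of all genes was 0.29 with TMM and 0.28 with totals, so the shift is that of the scaling. Removing the GC and length trend gave 12 higher genes (32.4% beside 21.1% of all genes) and a median of 0.52 at 5 μM, which is 0.60 above that of all genes, and 2 higher in CDK16-sh1 (5.56% beside 2.15%). The cause was not tested. Dose as a linear term called 7 genes in place of 0. Changes of the isoenzyme ratios cannot move with the authors' RPKM, since exon length and library total cancel in them, so this setting is no check. No paired analysis was possible because each condition has 1 library. No library could be left out, since each arm would lose its only library or the fit its residual degrees of freedom.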

Other observations

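The untreated states of the experiments differed for several of these genes. By the authors' RPKM, from separately made tables, NDRG1 stood at 4.13 in the scramble library and 26.6 in the DMSO library, VEGFA at 6.25 and 23.2, SLC16A1 at 0.073 and 0.704, and CA9 at 0 and 0.857. In the other direction, TXNIP stood at 17.8 and 4.33 and SLC2A1 at 48.7 and 19.7. GAPDH, at 678 and 633, and PKM, at 332 and 288, were closer. Each control is 1 library, and infection and sorting cannot be told apart from the vehicle or from any other difference between the experiments.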
